A study of Mus musculus with 30 samples.

Results

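Nascent RNA was described 1 day after auxin and dTAG13 were added to mouse embryonic stem cells whose genotype label names H3K9 methyltransferase genes. The comparison used 6 of the 15 libraries of a time course: the 3 collected at 24 h and the 3 collected at 0 h. Both groups came from the cell line dTKO, whose genotype is given as Suv39h1fl/fl; Suv39h2-/-; Setdb1fl/fl, and both carry the treatment label + auxin + dTAG13, so the groups differ by label in time alone. Auxin and dTAG13 trigger the breakdown of proteins that carry matching degron tags, but the labels name no tag and do not say which protein each compound removes or whether the line is 1 clone. RNA made during a 10 minute pulse of 4-thiouridine was purified and sequenced (TT-seq), and the 3 repeats of each time are called biological repeats by the study. All genes, repeats and non-coding units of the deposited table were compared: 20541 genes, 42029 non-coding units, and 319797 copies of repeats that belong to 1065 families. Of these, 15261 genes, 774 families, 13519 copies and 15730 non-coding units reached a mean of 10 over all 15 libraries and were tested.

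Trimethylated lysine 9 of histone H3 marks silent chromatin. SETDB1 places the mark mainly at endogenous retroviruses, where KRAB zinc finger proteins and TRIM28 bring it. SUV39H1 and SUV39H2 place it at satellites, among other sites. HP1 proteins bind the mark. In embryonic stem cells loss of SETDB1 is known to release retroviruses of the class II, or ERVK, group (IAP, MMERVK10C and ETn/MusD among them), and some of their long terminal repeats (LTRs) can drive nearby genes.

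Values are scaled reads, which are reads divided by the deposited size factor of the library and not by length, and a call is a limma adjusted p under 0.05 (Benjamini-Hochberg within genes, families, copies or non-coding units). The libraries held 38295807, 39854418 and 37122086 reads at 24 h and 38630725, 39483826 and 37625928 at 0 h. The ribosomal precursor Rn45s took 26.1% to 30.9% of the reads in genes at 24 h and 24.1% to 27.2% at 0 h. Replicate 2 at 24 h stood apart, being the highest of its group for 90.2% of tested genes, and replicate 2 at 0 h was the highest for 71.6%. To see changes relative to the bulk of genes, each comparison was also made after the values were rescaled over genes, with factors of 0.942, 1.18 and 0.937 at 24 h against 1.04, 1.13 and 1.05 at 0 h. The 12 stem cell markers examined had a median of 184 scaled reads per kb at 24 h and 219 at 0 h, by the authors' averages, against medians of 8.27 and 8.52 over all genes. Those of trophectoderm, primitive endoderm, fibroblasts and mesoderm had medians between 1.23 and 2.22 at 24 h and between 1.36 and 2.59 at 0 h, and neural markers had 8.07 and 8.97. In these bulk samples fewer cells of a type and less RNA per cell cannot be told apart.

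Transcription of the genes in the genotype was little changed after a day. Setdb1 gave 945, 1071 and 891 scaled reads at 24 h, against 847, 870.1 and 820.4 at 0 h (log2 change 0.19, SE 0.13). That was without a call (limma adjusted p 0.334), and the change was 0.27 with a call after rescaling (limma adjusted p 7.61e-06). Suv39h1 gave 499, 672 and 502 at 24 h and 449.5, 522 and 478 at 0 h, which was 0.19 without a call and 0.27 with one after rescaling. Suv39h2 gave 921, 1170.4 and 979 at 24 h and 1044, 1175 and 1055 at 0 h, without a call on either scale (-0.10, and -0.02 after rescaling), although its label reads -/-. Where in a gene its reads fall cannot be read from the deposited values, and the compounds act on protein, so these values do not check the labels.

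Of 15261 tested genes, 1101 were called up (7.21%) and 1859 down (12.2%) at 24 h, around a median log2 change of -0.08. After rescaling the split was 3306 up (21.7%) and 3332 down (21.8%), so the balance of rises and falls follows the scaling. Single libraries moved it as well. Leaving out 24 h replicate 2 gave 899 up and 4039 down. Leaving out 24 h replicate 3 gave 1082 and 1122, 24 h replicate 1 gave 1091 and 1206, and 0 h replicate 2 gave 1013 and 1143. Among tested genes 425 rose at least 2-fold with a call (2.78%) and 320 fell at least 2-fold (2.1%). A gene near silent at 0 h entered the test only if it was higher at a later time. Of 246 tested genes with a mean under 10 at 0 h, 184 were called up and 0 down. With a mean of 10 needed at 0 h alone, 907 of 15268 genes were called up (5.94%) and 1901 down (12.5%). The 2-fold counts were not made with that minimum. The authors' deposited table calls 448 genes up and 285 down at this time, and the 393 and 281 of these that were tested here were all called in the same direction.

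The 15 rises and 15 falls given next are the largest among called genes with an ordinary symbol, groups that do not overlap and a mean over all 15 libraries above 71.3 scaled reads, the level below which 25% of tested genes lie. Weaker genes outside this limit changed by more than some of these, such as Vmn2r22 (5.87) among the rises and Piwil4 (-2.52) among the falls. Of the 15 rises, the means at 0 h ran from 0.286 scaled reads for Vmn2r96 to 95.1 for Mctp1. Clec2f (chromosome 6, 129014112-129020527), a C-type lectin-like receptor gene, gave 563, 717 and 515 scaled reads at 24 h, against 3.25, 3.33 and 2.57 at 0 h (log2 change 7.20, SE 0.15). Its neighbours moved with it: Clec2g gave 1837, 2138 and 1701 at 24 h and 20.3, 21.6 and 18.003 at 0 h, and Clec2i gave 454, 586 and 457 at 24 h and 32.5, 29.1 and 26.6 at 0 h. For all 3 genes every library at 24 h lay more than 10-fold above every library at 0 h. Cd209c, a lectin receptor gene of the DC-SIGN family, gave 329, 396 and 303 at 24 h and 3.25, 3.33 and 1.71 at 0 h (log2 change 6.54, SE 0.17).

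A pair of neighbouring matrix metalloprotease genes on chromosome 9 rose together. Mmp1b gave 338, 433 and 342 scaled reads at 24 h and 1.63, 6.65 and 3.43 at 0 h, and Mmp12, the macrophage elastase gene, gave 749, 972 and 707 at 24 h and 21.9, 34.1 and 24.0 at 0 h. Their log2 changes were 6.37 (SE 0.16) and 4.88 (SE 0.14). Slc22a13, a transporter gene of the organic anion family, gave 224, 258 and 172 at 24 h, against 5.69, 5.82 and 3.43 at 0 h. The acetyltransferase-family gene Nat8f2 gave 168, 204 and 150.4 at 24 h, against 4.06, 2.495 and 6.001 at 0 h. The remaining genes of this set were PIRA6 (log2 change 4.85), Poteg (4.69), the steroid dehydrogenase gene Akr1c21 (4.23), Asb12 (4.13) and Mctp1 (3.99), a gene for a membrane protein with C2 domains.

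The vomeronasal receptor gene Vmn2r96 and the retinol dehydrogenase gene Rdh16 had too few reads at 0 h for a fitted change. Vmn2r96 had 626 reads over the 3 libraries at 24 h and 1 at 0 h, which is 662-fold (exact 95% limits 118 and 26194.5). Rdh16 had 406 reads at 24 h and 2 at 0 h, which is 215-fold (exact 95% limits 59.1 and 1779). Both intervals cover counting error only. Clec2, Vmn2r and Nat8f genes have near-identical paralogs, and no source used here says how reads with several positions were assigned, so the value of a single member is uncertain.

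**Figure D1:**
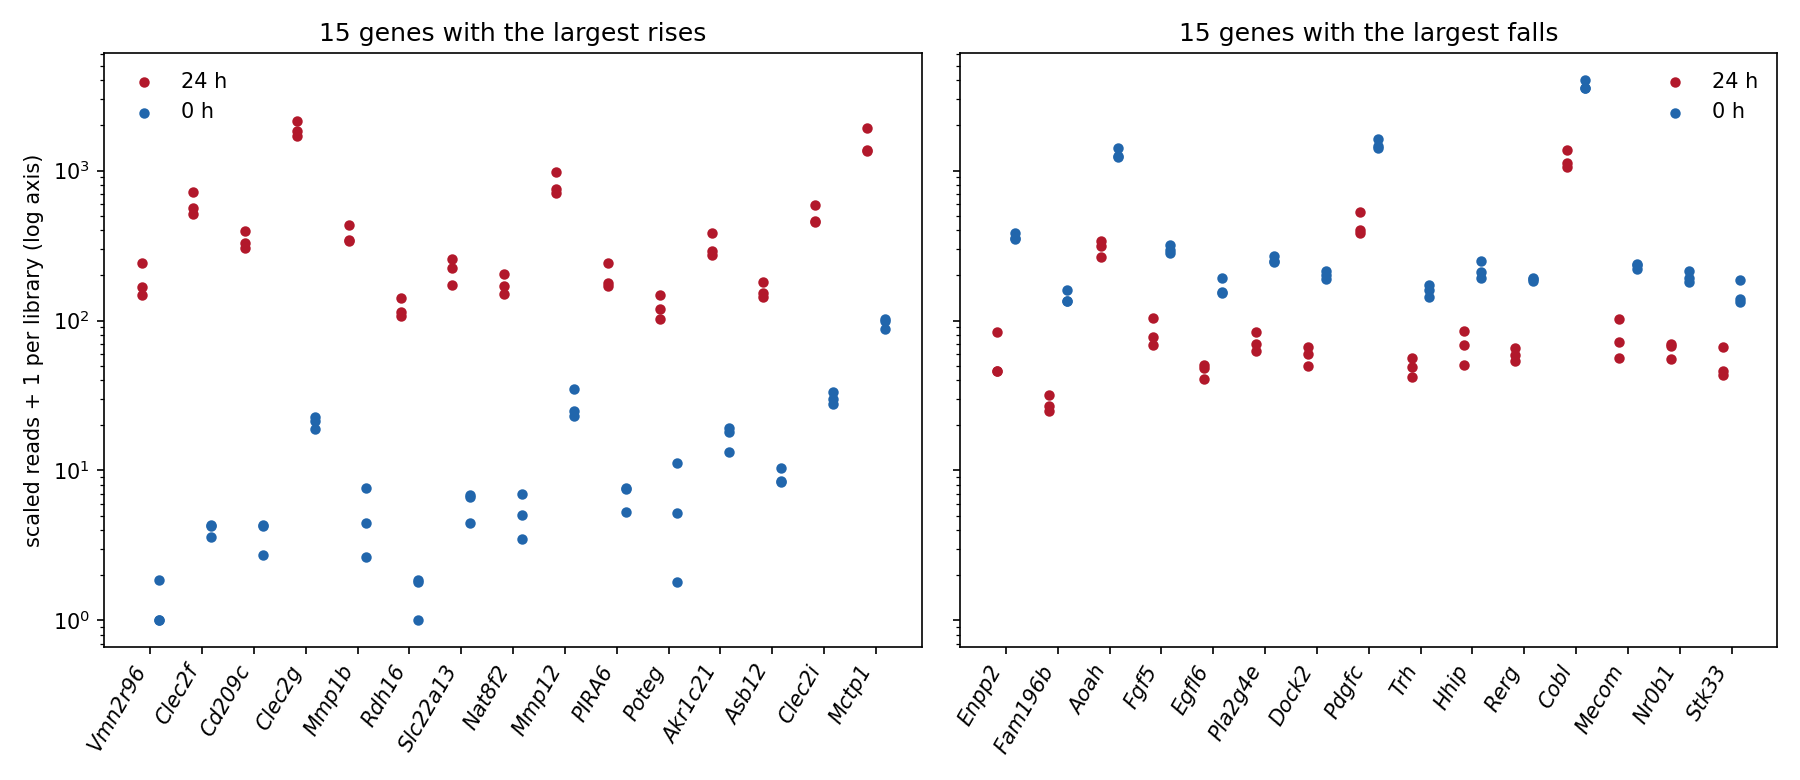
Scaled reads + 1 in each library (log axis) of the 15 genes with the largest rises (left) and the 15 with the largest falls (right) among genes with a mean over all libraries above 71.3, with the 3 libraries at 24 h in red and the 3 at 0 h in blue. In the left panel Clec2f sits between 515 and 717 at 24 h and between 2.57 and 3.33 at 0 h; in the right panel Enpp2 sits between 44.9 and 83.3 at 24 h and between 350.4 and 383 at 0 h.

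Some of the genes that rose start inside, or next to, a retrovirus copy. Of 304 genes that rose at least 2-fold and have a RefSeq start window (250 bases before to 50 after a start), 7 had at least 30 bases of such a window in an ERVK copy (2.3%). The count was 0 of 223 for genes that fell at least 2-fold and 29 of 11410 for all tested genes with a window (0.254%). The 250 bases before 3 of these starts are shown, since they carry the overlap. They come from RefSeq (GRCm38.p6), are written on the strand of the gene, and have in capitals the bases that lie in an ERVK copy of the table on that same strand.

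Cd209c, chr8:3946864-3947113, minus strand: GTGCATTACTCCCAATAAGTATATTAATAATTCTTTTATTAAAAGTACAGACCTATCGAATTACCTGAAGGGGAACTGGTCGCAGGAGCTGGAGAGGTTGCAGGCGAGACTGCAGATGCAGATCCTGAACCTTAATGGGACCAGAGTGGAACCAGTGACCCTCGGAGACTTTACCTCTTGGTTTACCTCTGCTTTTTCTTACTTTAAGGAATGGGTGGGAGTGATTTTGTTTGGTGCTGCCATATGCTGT
Nat8f2, chr6:85869138-85869387, minus strand: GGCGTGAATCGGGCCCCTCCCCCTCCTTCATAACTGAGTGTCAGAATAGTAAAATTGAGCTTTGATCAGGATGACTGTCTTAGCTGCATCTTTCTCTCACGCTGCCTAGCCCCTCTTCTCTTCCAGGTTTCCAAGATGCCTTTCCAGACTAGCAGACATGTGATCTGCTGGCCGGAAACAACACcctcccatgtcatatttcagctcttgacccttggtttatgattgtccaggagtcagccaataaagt
Bglap3, chr3:88371480-88371729, minus strand: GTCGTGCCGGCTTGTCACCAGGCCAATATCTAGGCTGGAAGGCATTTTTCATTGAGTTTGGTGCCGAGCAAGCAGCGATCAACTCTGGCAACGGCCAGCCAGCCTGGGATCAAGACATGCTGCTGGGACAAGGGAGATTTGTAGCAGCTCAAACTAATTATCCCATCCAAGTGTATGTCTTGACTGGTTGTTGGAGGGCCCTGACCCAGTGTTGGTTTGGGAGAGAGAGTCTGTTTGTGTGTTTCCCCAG

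All 250 bases before Cd209c lie in an MMERVK10C-int copy (3946329-3951359), which itself gave 1109.7, 1823 and 993 scaled reads at 24 h, against 43.1, 47.4 and 3.43 at 0 h. Before Nat8f2, 184 of the bases lie in an ERVB7_2B LTR copy, which gave 17.5, 24.3 and 22.1 at 24 h and 0, 0.832 and 0 at 0 h. Both copies were called up (log2 changes 5.90 and 4.18, limma adjusted p 8.67e-06 and 1.28e-05), as were the genes. The copy at Cd209c reaches into the gene itself (3940222-3946863), so the rises of that copy and gene may share reads. The Bglap3 window lies wholly in IAP-d-int copies inside the gene as the table bounds it (88368616-88372741). The copy with the largest overlap (88371552-88372606) gave only 4.16, 1.87 and 3.54 scaled reads at 24 h and 0, 0 and 0 at 0 h. It was too weak to be tested. Bglap3, a paralog of the osteocalcin gene, gave 106, 152 and 104 scaled reads at 24 h and 12.2, 11.6 and 15.4 at 0 h (log2 change 3.10, SE 0.17). Bglap3 was chosen after its values were seen. For Cd209c, Nat8f2 and Bglap3 alike, reads that run from a copy into the gene were not separated from reads started by the gene.

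Above the same level limit, the largest fall was of Enpp2. Enpp2, which encodes the lysophospholipase autotaxin, gave 44.9, 83.3 and 45.1 scaled reads at 24 h, against 350.4, 383 and 356 at 0 h (log2 change -2.69, SE 0.15). Aoah, which encodes an enzyme that inactivates bacterial endotoxin, gave 313, 336 and 266 at 24 h and 1248, 1422 and 1237 at 0 h (-2.09, SE 0.13). Fam196b gave 25.8, 30.9 and 23.9 at 24 h and 134, 159.7 and 135 at 0 h (-2.37, SE 0.18). The groups of these 3 genes did not overlap, which was a condition of their choice.

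Growth factor and hormone genes were among the falls. Fgf5, an FGF gene of the formative epiblast, gave 68.2, 103 and 77.0 scaled reads at 24 h and 282, 318 and 297 at 0 h (log2 change -1.86, SE 0.15). Pdgfc, a platelet-derived growth factor gene, gave 384, 532 and 402 at 24 h and 1448, 1622 and 1407 at 0 h (-1.77, SE 0.13). Trh, the precursor gene of thyrotropin-releasing hormone, gave 48.2, 55.2 and 40.7 at 24 h and 157.7, 143 and 172 at 0 h. For each of these genes every library at 24 h lay below every library at 0 h, by the same condition.

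Regulators of the cytoskeleton and of transcription also fell. Cobl, an actin nucleator gene, gave 1054, 1376 and 1131 scaled reads at 24 h, against 3565, 4020.2 and 3578 at 0 h (log2 change -1.65, SE 0.12). Nr0b1 (Dax1), a nuclear receptor gene of the pluripotency network on the X chromosome, gave 54.0, 68.3 and 66.3 at 24 h and 179.6, 214 and 192 at 0 h (-1.62, SE 0.15). Mecom, a PR-domain gene whose product has been described as an H3K9 methyltransferase, gave 54.9, 102 and 70.8 at 24 h and 220.3, 233 and 237 at 0 h (-1.63, SE 0.15). Egfl6 (-1.84), Pla2g4e (-1.83), Dock2 (-1.78), Hhip (-1.69), Rerg (-1.67) and Stk33 (-1.56) made up the rest of the 15. To be among these 30 rises and falls a gene had to have every library at 24 h on one side of every library at 0 h. That condition was met by 10.7% of tested genes upwards and 16.8% downwards.

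Naive pluripotency genes were mostly lower at 24 h. Of the 30 listed genes, all tested, 19 fell and 2 rose, beside 12.2% and 7.21% of all genes, with a median log2 change of -0.44 beside -0.08. After rescaling 23 fell and 4 rose, beside 21.8% and 21.7%, with a median of -0.36. Nanog gave 1005, 1256 and 954 scaled reads at 24 h, against 1659, 1922 and 1684 at 0 h (-0.72, SE 0.12). Tet2, a 5-methylcytosine oxidase gene, gave 1788, 2320.2 and 1831 at 24 h and 4316, 4922 and 4340.4 at 0 h (-1.20, SE 0.12), and Fgf4, the stem cell FGF gene, gave 359, 394 and 340.5 at 24 h and 784, 909 and 805 at 0 h (-1.19, SE 0.13). The falls of the core factor genes were smaller, with Sox2 at -0.43 (SE 0.13) and Pou5f1 at -0.35 (SE 0.13). Sox2 had no call once 24 h replicate 1 or 3 was left out (limma adjusted p 0.0623 and 0.0617). The call of Pou5f1 was lost with only the 6 libraries (limma adjusted p 0.0767), without the trend (0.0701), and without each 0 h library or 24 h replicate 1 or 3 (between 0.0694 and 0.242).

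Zfp42 (Rex1) went the other way. This zinc finger gene of naive cells gave 3172, 4066 and 3218 scaled reads at 24 h and 1533, 1677 and 1597 at 0 h (log2 change 1.11, SE 0.12). Of 19 formative and primed pluripotency genes 3 rose and 4 fell, beside 7.21% and 12.2% of all genes, and 4 rose and 8 fell after rescaling. Fgf5, Fgf15 (-1.59) and Foxd3 (-1.09) fell, while Lefty1 rose (0.53). Markers of differentiated lineages were called in both directions: of 16 tested germ layer regulators 3 rose and 5 fell, of 20 trophectoderm genes 2 rose and 3 fell, and of 14 primitive endoderm genes none rose and 3 fell. After rescaling these counts were 6 and 5, 5 and 3, and 1 and 4. Eomes (-0.91), Lama1 (-1.16), Cubn (-1.38) and Fgf8 (-0.80) fell, and the keratin genes Krt8 (0.43) and Krt18 (0.64) rose. Krt8 had no call once 0 h replicate 3 was left out (limma adjusted p 0.0623).

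All 22 tested 2-cell-like genes of 39 listed rose, with a median log2 change of 2.27, beside 7.21% of all genes called up. All 22 also rose after rescaling, beside 21.7% of all genes. These genes are normally switched on for a short time in the 2-cell embryo and in rare stem cells. Zscan4f gave 131, 158 and 99.95 scaled reads at 24 h, against 12.2, 16.6 and 13.7 at 0 h (3.09, SE 0.17). Usp17le, a deubiquitinase-family gene, gave 82.3, 130.05 and 89.3 at 24 h and 4.88, 4.99 and 6.001 at 0 h (3.99, SE 0.22). Zscan4b (3.76) and Zscan4c (3.74) rose alike, but the Zscan4 genes are near-identical copies. A gene silent at 0 h could be tested only if it rose. With the minimum set at 0 h alone 5 of 5 rose, with a median of 1.54, beside 5.94% of all genes.

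Germline genes, many of them kept silent by DNA methylation and the PRC1.6 complex, rose more often than they fell. Of 43 tested of 48 listed, 19 rose and 5 fell, beside 7.21% and 12.2% of all genes, so the falls were near the background. After rescaling 28 rose and 7 fell, beside 21.7% and 21.8%. The median log2 change was 0.29. The piRNA-pathway genes Mov10l1 (1.34) and Mael (1.29), the RNA-binding protein gene Dazl (1.31) and the testis tubulin gene Tuba3a (1.53) rose. Dazl gave 235, 312 and 227 scaled reads at 24 h and 105, 109.8 and 93.4 at 0 h. Piwil4, a PIWI gene chosen after its values were seen, was the furthest in the other direction among the members called, at 3.32, 2.81 and 1.77 at 24 h, against 15.4, 24.1 and 19.7 at 0 h (-2.52, SE 0.37).

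Receptor and clustered gene families were counted in the same way, beside 7.21% of all genes up and 12.2% down. Of 25 tested olfactory and vomeronasal receptor genes of 250 in the table, 18 rose and 1 fell, and of 16 tested C-type lectin and killer receptor genes of 38, 12 rose and 1 fell. With the minimum set at 0 h these were 5 and 3 of 14, and 5 and 1 of 8, beside 5.94% of genes up and 12.5% down. Vmn2r22 had 241 reads at 24 h and 1 at 0 h, which is 255-fold (exact 95% limits 45.3 and 10109.8). Vmn2r20 had 169 reads at 24 h and none at 0 h, and so was at least 59.6-fold higher if the 3 libraries at 0 h are set to a summed floor of 3 reads. Of 28 tested Serpin, Nat8 and Slc22 cluster genes 13 rose and 4 fell, Serpinb1c among the rises (3.31), with a median of 0.34. With the minimum set at 0 h 7 rose and 5 fell of 22, with a median of 0.08. The 8 protocadherin genes that rose, of 30 tested, were all of the alpha cluster and overlap each other, so they share reads; Pcdha8 was at 1.37 (SE 0.34). With the minimum set at 0 h 1 of 23 protocadherin genes rose. Of 345 tested Zfp genes 33 rose and 20 fell, with Zfp37 (1.45) and Zfp872 (2.22) among the rises. After rescaling 108 rose and 57 fell, beside 21.7% and 21.8% of all genes. The rises were near the share over all genes on the deposited scaling and above it after rescaling.

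**Figure D2:**
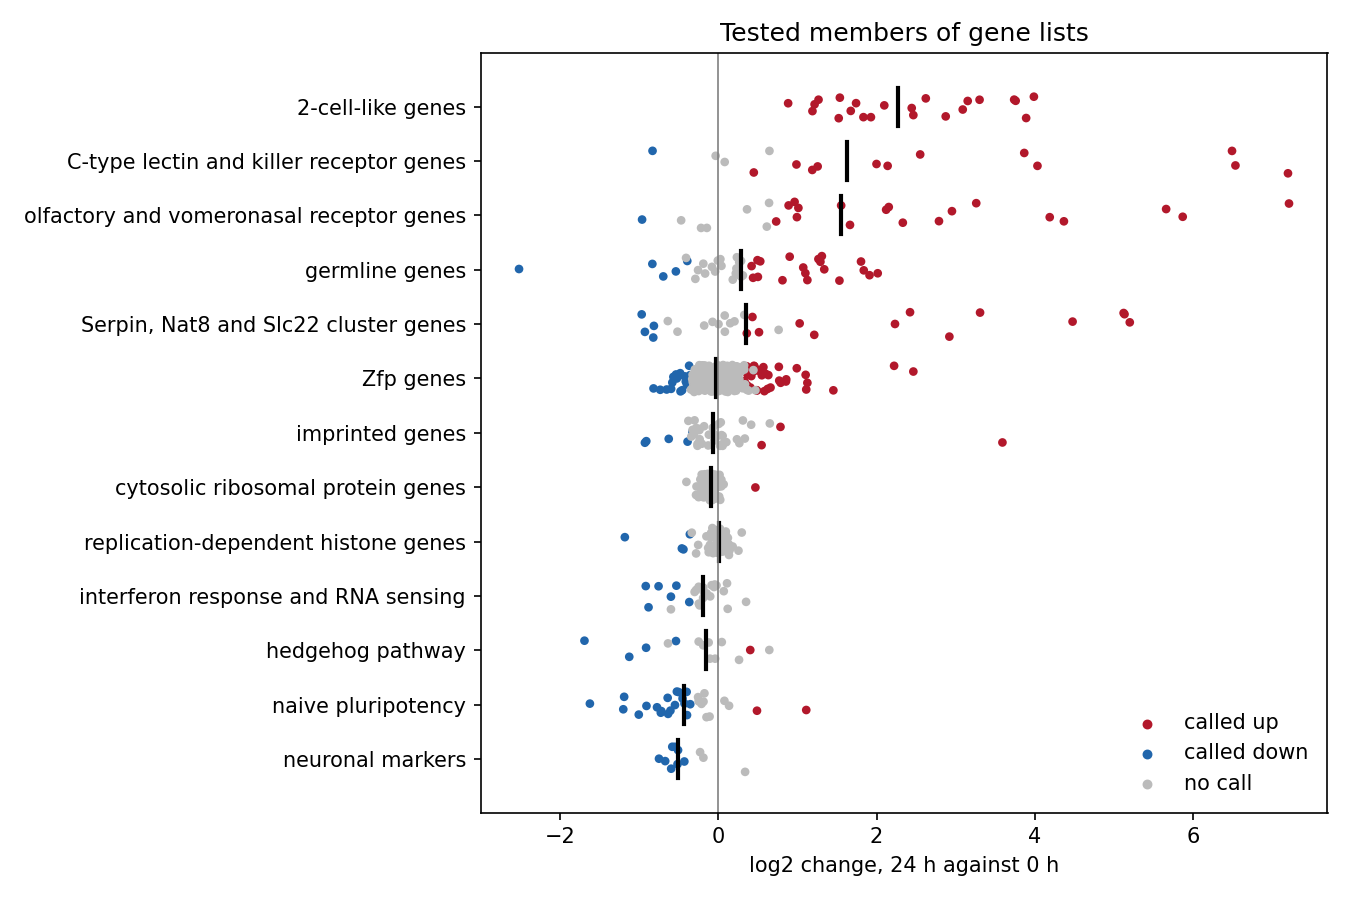
Log2 change at 24 h against 0 h (horizontal axis) of each tested member of 13 gene lists on the deposited scaling, with genes called up in red, called down in blue and without a call in grey; black bars are list medians. The 2-cell-like genes lie wholly right of 0 with a median of 2.27, and the naive pluripotency and neuronal lists have medians of -0.44 and -0.51.

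Signalling genes changed in both directions. The shares to read their counts against are 7.21% of all genes up and 12.2% down, or 21.7% and 21.8% after rescaling. Of 14 tested hedgehog pathway genes 4 fell and 1 rose (5 and 4 after rescaling). Among them the ligand-binding inhibitor gene Hhip fell by 1.69 on the log2 scale, and the pathway's transcription factor genes Gli1 and Gli2 by 1.12 and 0.91. Of 20 FGF and ERK feedback targets 6 fell and 3 rose, but 6 fell and 6 rose after rescaling; the feedback inhibitor gene Spry4 was at -0.79, and the immediate-early gene Egr1 at 0.62 and the ETS factor gene Etv1 at 0.77. Bambi, a decoy receptor gene for TGF-beta and BMP signals, gave 691, 819 and 691 scaled reads at 24 h, against 204, 204 and 213 at 0 h (1.82, SE 0.13). In the same pathway list of 23 tested genes 3 rose and 5 fell (6 and 7 after rescaling), with Inhbb (-1.24) and Bmp4 (-0.78) lower. Of 13 WNT targets 2 rose and 3 fell (3 and 4 after rescaling): among the falls were the feedback gene Notum by 1.43 and Ccnd1 by 0.97, while the transcription factor gene Sp5 rose (0.98).

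Neuronal, interferon and stress lists are read against the same shares. All 8 of the called members among 11 tested neuronal markers fell, with a median of -0.51 over the 11, and 8 fell after rescaling; the growth cone gene Gap43 gave 551, 725 and 531 scaled reads at 24 h and 967, 1076 and 969.6 at 0 h (-0.75, SE 0.13). Of 25 tested interferon and RNA sensing genes none rose and 6 fell (1 and 10 after rescaling), among them Ifitm1 (-0.88), Ifitm3 (-0.75), Ddx60 (-0.92) and Oasl2 (-0.53). Of 23 stress response genes 2 rose, Atf3 (1.05) and Ddit4 (0.50), and none fell (7 and 1 after rescaling). Of 16 aryl hydrocarbon receptor and xenobiotic genes 2 rose, Cyp1b1 (1.25) and Cyp1a1 (1.75), and 4 fell, with Slc7a11 (-0.72) and Hmox1 (-0.47) among them (3 and 7 after rescaling). Of 26 p53 targets none rose and 2 fell, Trp73 (-0.95) and Gdf15 (-0.81), and 6 rose and 4 fell after rescaling.

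Genes of the silencing machinery were called about as often as all genes on the deposited scaling. Of 42 tested heterochromatin and silencing factors 2 rose and 6 fell, beside 7.21% and 12.2% of all genes, and 9 rose and 16 fell after rescaling, beside 21.7% and 21.8%; with only the 6 libraries 2 rose and 2 fell. Tet2, given above at -1.20, was the furthest of these falls, and Mecom, given above at -1.63, the furthest of the 8 H3K9 methyltransferase genes. The 2 that rose were 2810474O19Rik and Fam208b. The first (Resf1), whose product works with SETDB1 in retrovirus silencing, gave 6564, 8547 and 6417 scaled reads at 24 h, against 3808, 4362 and 3784 at 0 h (0.84, SE 0.12). Fam208b (Tasor2), a paralog of the HUSH subunit gene, gave 3996, 5281 and 3925 at 24 h and 2687, 3146 and 2739.9 at 0 h (0.61, SE 0.12). Pcgf6, a PRC1.6 subunit gene, was at -0.39 with a call that was lost without 24 h replicate 1 or 3 or without 0 h replicate 2 (limma adjusted p between 0.0939 and 0.149). Prdm16, the other called member of that list of 8, was at -0.43, with a call lost without the trend (limma adjusted p 0.0547) and without 24 h replicate 1 (0.251) or 0 h replicate 2 (0.209).

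Growth and cell cycle lists held few calls on the deposited scaling, set beside 7.21% of all genes up and 12.2% down (21.7% and 21.8% after rescaling). Of 20 mitosis genes 0 were called in limma, 0 in edgeR or DESeq2 and 0 at an unadjusted p under 0.05, while after rescaling 4 rose and 2 fell. Of 26 replication genes 2 fell, Pola1 (-0.44) and Ccne1 (-0.42), and none rose, while after rescaling 3 rose and 5 fell. Leaving out 24 h replicate 3 removed both calls (limma adjusted p 0.0514 and 0.0809) as did leaving out 0 h replicate 2 (0.065 and 0.1005), and that of Ccne1 was also absent without 24 h replicate 1 (0.055). Of 83 cytosolic ribosomal protein genes 1 rose, Rpl39l, a testis-enriched paralog (0.47), and none fell, while after rescaling 4 rose and 18 fell. Of 61 replication-dependent histone genes 4 fell and none rose, while after rescaling 13 rose and 5 fell; 3 of the 4 (Hist1h2af, Hist1h2bp and Hist2h2be) had no call once 24 h replicate 3 was left out (limma adjusted p between 0.0601 and 0.192). Of 41 imprinted genes 3 rose and 5 fell, the same shares as over all genes to within 1 gene (13 and 14 after rescaling). Among them Asb4 gave 291, 353 and 305 scaled reads at 24 h and 22.8, 27.4 and 25.7 at 0 h (3.59, SE 0.16), and Plagl1 fell by 0.63. Of 5 tested Hox genes 0 were called in limma, edgeR or DESeq2, with 2 lower at an unadjusted p under 0.05, and of 11 Mage and Xlr genes 0 were called in these tools, with 1 higher and 1 lower at that p. Of 5 Rhox genes 1 fell, Rhox9 (-1.07), whose call was lost in DESeq2 (adjusted p 0.0582) and without 24 h replicate 3 (limma adjusted p 0.337). Of 11 fibroblast markers 4 fell and 1 rose, the proteoglycan gene Lum (2.70). In cholesterol synthesis 1 of 25 genes rose, Idi1 (1.23), and 2 fell, among them Ebp (-0.51), which had no call without 24 h replicate 3 (limma adjusted p 0.142). After rescaling 3 of these genes rose and 9 fell.

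Genes near a retrovirus copy that rose were called up more often than genes far from one. Among genes whose start lay under 5 kb from 1 of the 2707 LTR copies that were called up within 152 families called up, 53 of 98 were called up (54.1%). The share was 94 of 318 at 5 to 20 kb (29.6%), 214 of 1464 at 20 to 100 kb (14.6%) and 739 of 13374 beyond 100 kb (5.53%), beside 7.21% of all genes. Measured from the 803 tested copies of the same families without a call, the shares were 13 of 54 (24.1%), 23 of 223 (10.3%), 78 of 897 (8.7%) and 985 of 14079 (7%). Genes and copies near silent at 0 h were tested only if they were higher at a later time. The shares were not counted with the minimum set at 0 h. Copies without a call also lie near copies with one, and reads that continue from a copy into a gene were not separated. For these reasons the shares are a description with no test.

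**Figure D3:**
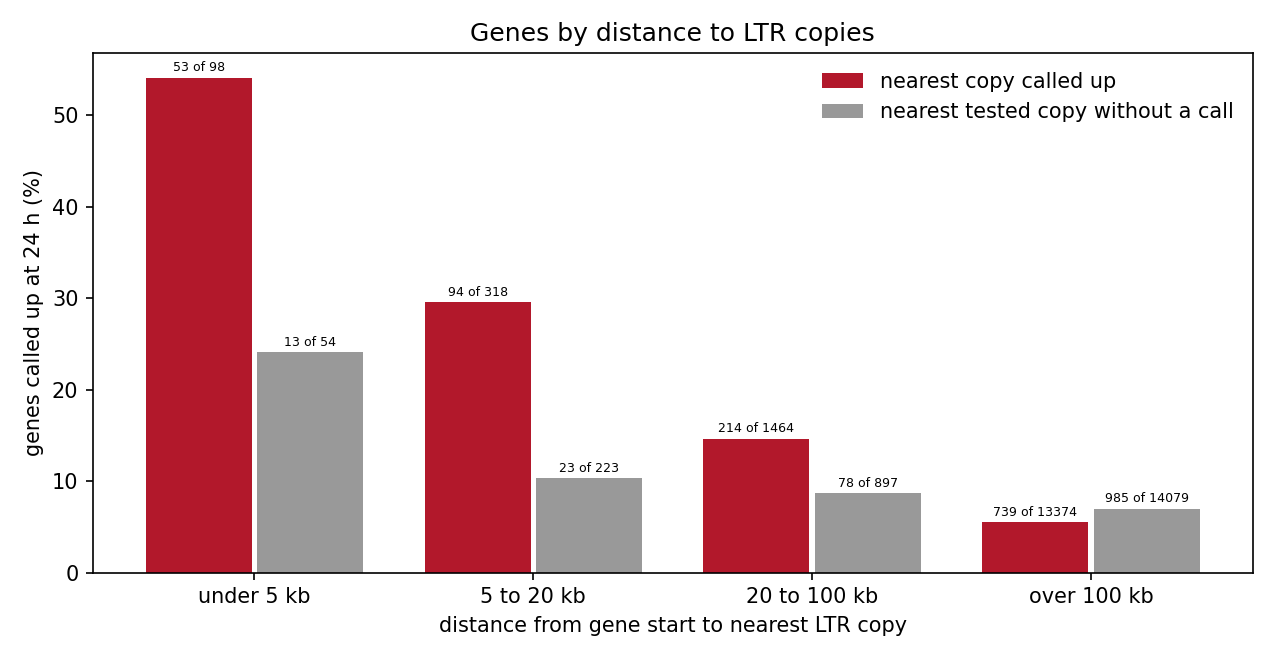
Share of tested genes called up at 24 h (vertical axis, %) by distance of the gene start from the nearest LTR copy called up (red) and from the nearest tested copy of the same families without a call (grey), with the counts above each bar. The red bars fall from 54.1% under 5 kb to 5.53% beyond 100 kb.

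Long genes were called more often in both directions. Of genes of 100 kb and over 10.6% were called up and 20.8% down, and of genes under 5 kb 6.62% and 7.13%. After rescaling these shares were 29.9% and 32.2% for the long genes and 13.9% and 12.1% for the short ones. The median signal at 0 h was 829.8 scaled reads in the long genes and 81.2 in the short ones, and the part of depth in this difference was not tested. The median log2 change was -0.09 in the long genes and -0.06 in the short ones.

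Repeats rose as a class. Repeat copies held 7.54%, 7.34% and 7.11% of the reads of genes and repeats without Rn45s at 24 h, against 4.23%, 4.21% and 4.31% at 0 h. Of 774 families 189 were called up (24.4%) and 8 down (1.03%), and after rescaling 305 up (39.4%) and 11 down (1.42%). Of these, 88 rose at least 2-fold (11.4%) and none fell that far. MMERVK10C and its RLTR10 LTRs alone made up 26.0% of the summed repeat signal at 24 h and 1.64% at 0 h.

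ERVK families moved furthest. MMERVK10C-int, the internal part of the retrovirus, gave 293185, 352558 and 253878 scaled reads at 24 h, against 8871, 9687 and 8912 at 0 h (log2 change 5.02, SE 0.12). Its LTR RLTR10C gave 14900.1, 18740.5 and 13548 at 24 h and 680.4, 746 and 718 at 0 h (4.45, SE 0.12). IAPEz-int, the internal part of the intracisternal A particle, gave 43536, 51022 and 42239.9 at 24 h and 4660.3, 4934 and 4844 at 0 h (3.239, SE 0.12). ERVB4_1B-I_MM-int (3.83) and IAPLTR3-int (3.54) lay between RLTR10C and IAPEz-int. RLTR47_MM had 58 reads at 24 h and none at 0 h, at least 20.4-fold higher with the same floor. The groups of these families did not overlap, which was a condition of choice for the 5 largest rises. It held for 28.9% of families upwards and 2.97% downwards.

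Other abundant families rose less. MMETn-int, of the ETn elements, gave 75171, 101088 and 76771 scaled reads at 24 h, against 52513, 56325 and 52739 at 0 h (log2 change 0.63, SE 0.12). MMERVK9C_I-int (1.49), RLTR1B-int (1.34) and RLTR13G (0.81) lay between. MERVL-int, of the retrovirus active at the 2-cell stage, gave 5585, 6804 and 5194 at 24 h and 2161, 2544 and 2262 at 0 h (1.33, SE 0.12). Among LINE elements L1Md_T gave 44228, 51068 and 43685 at 24 h and 30902, 32997 and 31215 at 0 h (0.54, SE 0.12).

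The pericentromeric major satellite, a known site of SUV39H action, also rose. GSAT_MM gave 3994, 5585 and 4091 scaled reads at 24 h, against 1102, 1200.3 and 1222 at 0 h (log2 change 1.94, SE 0.12). The table holds 55 of its copies, of which 13 were tested and 12 rose, beside 25.4% of all tested copies. With the minimum set at 0 h alone 7 of 8 rose, beside 5.8% of all copies. The 10 highest copies held 96.0% of the signal at 24 h and 97.8% at 0 h.

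B2 SINE families fell. B2_Mm2 gave 30541, 36485 and 30238 scaled reads at 24 h, against 40499, 44177 and 47354.5 at 0 h (log2 change -0.44, SE 0.12; -0.36 after rescaling), and B2_Mm1a gave 17361, 19349.6 and 16157 at 24 h and 25801, 28729 and 29037 at 0 h (-0.66, SE 0.12). Every library at 24 h was below every library at 0 h for both. The other falls among the 5 largest were of small families: L1M6 (-0.91), MER34-int (-0.89), RMER16B2 (-0.86) and L4_A_Mam (-0.79). The call of L1M6 was lost in DESeq2 (adjusted p 0.0834) and without each of 5 of the 6 libraries (limma adjusted p between 0.0548 and 0.142).

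**Figure D4:**
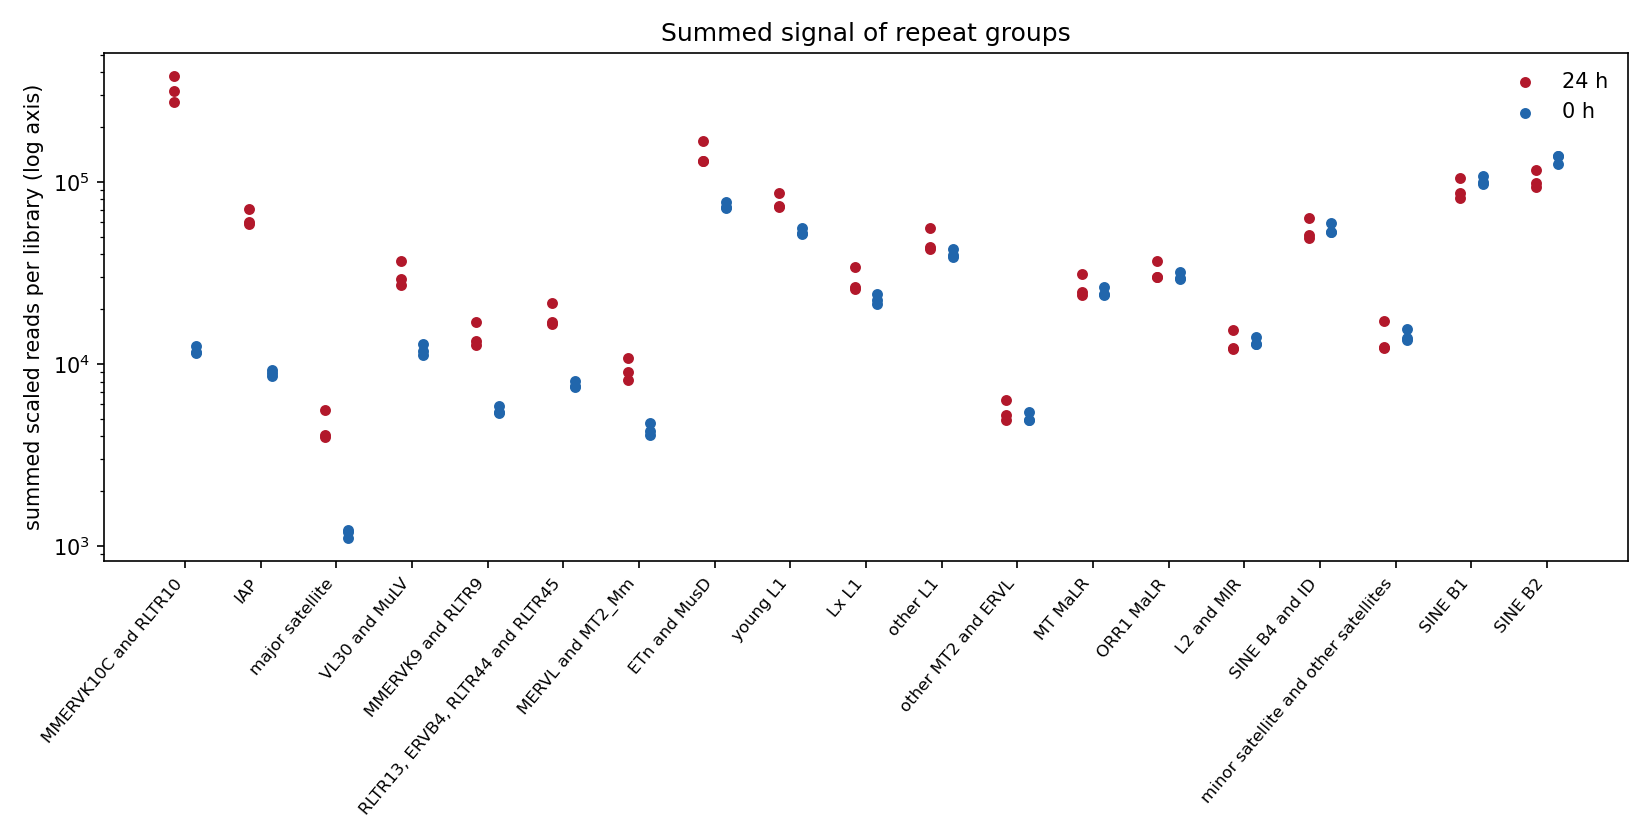
Summed scaled reads per library (log axis) over all copies of each repeat group, with the 3 libraries at 24 h in red and the 3 at 0 h in blue, ordered by the ratio of the group means. MMERVK10C and RLTR10 lie at the left with a ratio of 27.1, and SINE B2 at the right with a ratio of 0.767.

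Single copies were counted within the groups. Of 13519 tested copies 3437 were called up (25.4%) and 845 down (6.25%). Of MMERVK10C and RLTR10 copies 822 of 878 rose and none fell, of IAP copies 766 of 913 rose and 1 fell, and of ETn and MusD copies 478 of 640 rose and 11 fell. A copy silent at 0 h could be tested only if it rose, so these shares overstate how many copies rose. Among copies that reached the minimum by their 0 h libraries, the rises were 143 of 189, 42 of 158 and 132 of 282 and the falls 1, 2 and 8, beside 5.8% up and 7.13% down over all copies. Without a minimum the rises were 1249 of 4839, 2242 of 9589 and 812 of 2845, beside 2.47% over all copies.

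The rise was spread over many copies. Of 1525 MMERVK10C-int copies 1356 had at least 1 read at 24 h and 724 at 0 h, and 321 had a mean of at least 100 scaled reads at 24 h, against 13 at 0 h. The 10 highest copies held 27.2% of the family's signal at 24 h and 38.7% at 0 h. Copies of 4 kb and over gave 155 scaled reads per kb at 24 h and 4.21 at 0 h, those of 1 to 4 kb 66.7 and 2.62, and those under 1 kb 153 and 5.07. IAPEz-int was spread more evenly at 24 h: its 10 highest copies held 8.02% of the signal at 24 h and 33.1% at 0 h, and 3808 of 4453 copies had a read at 24 h, against 1433 at 0 h. In contrast the 10 highest ETnERV2-int copies held 66.9% at 24 h and 90.7% at 0 h. Reads of near-identical copies may be assigned to the wrong one.

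Above a mean of 13.0 scaled reads over all libraries, the 3 copies that rose most were of MMERVK10C-int. One on chromosome 8 (4682432-4687356, minus strand) gave 1303, 1621 and 931 scaled reads at 24 h and had no read at 0 h, so with the same floor it was at least 1535-fold higher. One on chromosome 5 (15000001-15004545, minus strand) gave 3005, 3678 and 2878 at 24 h and 7.32, 1.66 and 0 at 0 h (log2 change 10.14, SE 0.57), and one on chromosome 19 (8244056-8248998, plus strand) gave 1601, 1785 and 1264 at 24 h and 0, 0 and 7.72 at 0 h (9.54, SE 0.73). The largest fall was of an MMERGLN_LTR copy on chromosome 7 (52333740-52334170, minus strand), at 0, 6.55 and 0 at 24 h and 52.0, 69.0 and 45.4 at 0 h (-4.83, SE 0.83). That copy is no guide to the internal family MMERGLN-int, of which 59 of 62 tested copies rose and 0 fell (median 5.33). This is beside 25.4% of all tested copies called up, with the minimum over all libraries.

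Copies of other groups are set beside the 25.4% of all tested copies called up and the 6.25% called down. Of 233 tested MERVL and MT2_Mm copies 94 rose and 4 fell, and of 881 young L1 copies 261 rose and 4 fell, the last a share of rises near that background. VL30 and MuLV copies rose in 124 of 228 cases, MMERVK9 and RLTR9 copies in 96 of 148, and RLTR13, ERVB4, RLTR44 and RLTR45 copies in 121 of 195. With the minimum set at 0 h alone the counts of rises were 11 of 84, 80 of 594, 39 of 122, 21 of 74 and 26 of 101 in the same order, beside 5.8% of all copies. Of 2188 SINE B2 copies 495 fell and 46 rose, and of 1698 SINE B1 copies 140 fell and 48 rose; with the minimum at 0 h these were 511 and 19 of 2651, and 134 and 14 of 1935. Of 925 SINE B4 and ID copies 35 rose and 21 fell, with a ratio of summed signal of 0.991.

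Non-coding units over ERVK copies mostly rose. Antisense and downstream units fell more often than units in general, as did units in none of the named position classes. Of 15730 tested units 4781 were called up (30.4%) and 3900 down (24.8%), with a median log2 change of -0.06. Units over an ERVK copy had 2112 rises and 163 falls among 2676, with a median of 3.33, and units over another LTR copy had 613 and 170 among 1173. Divergent units at gene starts had 119 rises and 436 falls among 2710 (median -0.15), a share of falls below that of all units, antisense units inside genes 302 and 1122 among 2921 (median -0.39), and units downstream of genes 70 and 209 among 528 (median -0.38). With the minimum set at 0 h alone, units over an ERVK copy had 695 rises and 176 falls among 1266 (median 0.57), units over another LTR copy 251 and 190 among 823 (median 0.0038), divergent units 86 and 475 among 2830, and antisense units 169 and 1435 among 3392, beside 13.1% up and 32.8% down over all units. Units in none of these classes, the largest set, had 1565 rises and 1800 falls among 5722 (median -0.16). With the minimum set at 0 h they had 671 rises and 2224 falls among 5594, and downstream units 33 and 253 among 601. The medians for divergent, antisense and downstream units were -0.07, -0.31 and -0.30 after rescaling.

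Above a mean of 15.8 scaled reads over all libraries, the 4 units that rose most all overlap ERVK copies and no gene of the table. The unit on chromosome 3 (45103201-45146201, plus strand), over ETnERV2-int and MMERVK9C_I-int copies among others, gave 1751, 2137 and 1736 scaled reads at 24 h, against 2.44, 0 and 1.71 at 0 h (log2 change 9.79, SE 0.40). The unit on chromosome 9 (36419001-36504601, minus strand) gave 3732, 4673 and 3458 at 24 h and 3.25, 1.66 and 9.43 at 0 h (9.64, SE 0.31). The unit on chromosome 17 (18555801-18580801, plus strand) gave 1456, 1772 and 1355 at 24 h and 0.813, 2.495 and 2.57 at 0 h, and ends 926 bases before the start of Vmn2r96 on the same strand. The unit on chromosome 10 (33891001-33898801, plus strand) gave no read at 0 h, and with the same floor was at least 989-fold higher. The largest falls were of weak units, such as one on chromosome 13 (47854601-47862801, plus strand) at 3.32, 5.61 and 3.54 at 24 h and 34.1, 40.8 and 38.6 at 0 h (-2.94, SE 0.32).

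**Figure D5:**
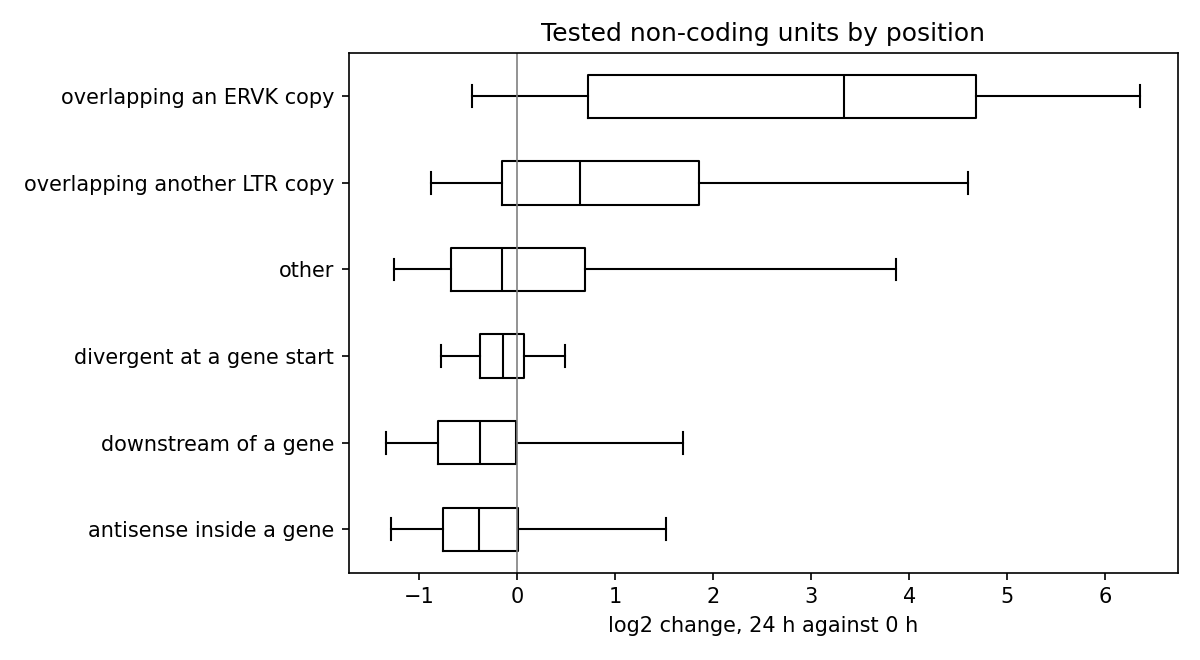
Log2 change at 24 h against 0 h (horizontal axis) of tested non-coding units by position class; boxes span the quartiles, lines inside are medians and whiskers reach the 5th and 95th percentiles. Units over an ERVK copy have a median of 3.33, and antisense units inside genes one of -0.39.

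The 24 h state was set against its neighbours in time in the same fit. At 24 h 234 genes were higher than at 12 h (1.53%) and 4376 lower (28.7%), and 6202 were higher than at 48 h (40.6%) and 367 lower (2.4%). After rescaling these were 1946 and 1904, and 2544 and 3358, so the lean to one side again follows the scaling. Repeat families were more often higher at 24 h than at 12 h (53, or 6.85%, against 21 lower, or 2.71%) and more often lower than at 48 h (31, or 4.01%, against 3 higher, or 0.388%); after rescaling the counts were 164 higher and 9 lower, and none higher and 331 lower.

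Whether genes called at 24 h had moved since 12 h also depended on the scaling: on the deposited one, 28.7% of all genes were lower than at 12 h and 1.53% higher. Of the 1859 genes down at 24 h, 1256 were also lower than at 12 h and none was higher, and 767 were lower still at 48 h, while 40 had come back by a call. Of the 1101 genes up at 24 h, 218 were also higher than at 12 h and 23 lower, 158 were higher still at 48 h and 186 lower at 48 h than at 24 h. After rescaling, 1351 of 3332 falls were also lower than at 12 h and 57 higher, and 1409 of 3306 rises were also higher than at 12 h and 30 lower. The rescaled falls were lower still at 48 h in 673 cases and higher in 788, and the rescaled rises higher still in 1164 and lower in 397. Aoah was at -0.66 at 12 h, -2.09 at 24 h and -3.48 at 48 h. Fgf5 was at -1.67, -1.86 and -1.27.

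A small set was furthest from 0 h at 24 h, with calls against 0, 12 and 48 h: 11 genes up and 15 down, or 38 and 153 after rescaling. Mctp1 gave a mean of 1545 ± 320.3 scaled reads at 24 h and 95.1 ± 7.98 at 0 h (SD, n = 3 each) and had log2 changes of 3.51 at 12 h, 3.99 at 24 h and 3.51 at 48 h. Cyp2b23, a cytochrome P450 gene, was at 2.00, 2.38 and 2.06 at these times, and the predicted membrane protein gene Tmem241 at 1.18, 1.64 and 1.27. Otx2os1, an antisense RNA gene at Otx2, was at 0.38, 0.91 and 0.18, and the adenylate cyclase gene Adcy5 at 0.42, 0.97 and 0.60. On this scaling the median gene was 0.28 higher at 24 h than at 48 h and 0.25 lower than at 12 h. The differences from 48 h were 0.32 for Cyp2b23, 0.37 for Tmem241 and Adcy5, 0.48 for Mctp1 and 0.72 for Otx2os1. The smaller ones were near that median, so their place may depend on the scaling. The places of single named genes after rescaling are not given here. On the lower side the collagen receptor gene Ddr2 was at -0.51, -1.06 and 0.16, the matrix glycoprotein gene Tnc at 0.03, -0.92 and -0.32, and the growth factor gene Nrg1 at -0.16, -0.63 and -0.29. The smooth muscle actin gene Acta2 was at -0.07, -0.47 and 0.36, but its call at 24 h was lost without 24 h replicate 1 or 3 or 0 h replicate 1 (limma adjusted p between 0.0667 and 0.0715).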

How the data were processed

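The labels list 30 samples, 2 sequencing runs for each of 15 libraries, and the deposited table holds 1 column per library. Per the submitters' processing notes, STAR 2.5.2a, DESeq2 and deepTools were used with mm10 (GRCm38); no source used here states how reads with several positions were handled or what the size factors rest on. The values deposited by the authors are a signal, reads divided by 1 size factor per library: between 99.9969% and 99.9991% of values were whole multiples of 1 step (tolerance 0.05 reads), so reads were recovered from them. Per the labels' protocols, 110 µg of RNA was mixed with 1 µg of labelled yeast RNA.

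The main test was limma 3.58.1 (R 4.3.3) with a mean-variance trend on log2(value + 1), so low items' changes are understated. All 15 libraries entered the fit, items needed a mean of 10 over them, and p-values were adjusted by Benjamini-Hochberg within each class. The prior degrees of freedom were infinite for genes and families, 4.25 for copies and 22.5 for non-coding units, beside 10 residual ones. Rescaling used the median ratio over tested genes. edgeR 4.0.16 and DESeq2 1.42.0 were run on the recovered reads as alternatives, and the steps were tested on simulated data. Overlaps used bedtools 2.31.1. Of the gene symbols 20039 matched a current symbol, 445 an older one and 57 none.

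The text names the 15 largest rises and falls among called genes with an ordinary symbol, groups that do not overlap and a mean above the lowest 25% of tested genes (71.3; 13.0 for copies and 15.8 for non-coding units, by the same rule), members of gene lists, and the largest and most abundant repeats, by a written rule; Bglap3 and Piwil4 were added after their values were seen. The groups, lists and rule were chosen with earlier results of these data known. Some items are not reported here.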

Additional observations from a re-analysis of the deposited data

How the results depend on the processing

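Of 166 named items, 149 kept their direction and their side of the threshold under every alternative run, and none changed direction. The count of called genes, 2960, was 6638 after rescaling, 6645 with edgeR and TMM, and 6491 after rescaling with the minimum set at 0 h, an alternative chosen after seeing the data; it was between 2156 and 4938 with 1 library left out, highest without 24 h replicate 2. That of families, 197, was 316, 321 and 307 under the same 3 settings, and between 168 and 202 with 1 library left out. That of copies, 4282, was 8521 without a minimum, 1516 with the minimum at 0 h, 1206 with a minimum of 50 and 1573 after rescaling with the minimum at 0 h, and between 3824 and 4113 with 1 library left out. That of non-coding units, 8681, was 15112 without a minimum and 3222 with a minimum of 50, and between 7767 and 8671 with 1 library left out. The minimum changes which items are tested; the cause of the shifts with scaling was not tested. With the replicate number as a block the counts were 3322 genes, 201 families, 4283 copies and 8767 non-coding units, and 5795 and 7391 genes against 12 h and 48 h. Each library's deviations from its group mean were correlated over tested genes between 24 h and 0 h. For same-numbered libraries these correlations of deviations were 0.0156, 0.079 and 0.0663, each library best with its own number. The main test did not use the numbers as pairs, and the block counts just given are those with the numbers used. For genes and families the infinite prior degrees of freedom make the limma p-values and SEs rest on the trend over all items. An item's own spread between 3 libraries a group has no weight there. For copies and non-coding units it has part of the weight. Genes with few reads at 0 h are limited by depth.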
